A study of Mus musculus with 22 samples.

Results

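The acetylation of histone H3 lysine 27 (H3K27ac) that separated the inbred mouse strains BALB/cJ and C57BL/6J was set against the difference between the same genomes when they shared a nucleus in the F1 hybrid. Kupffer cells, which are macrophages that reside in the liver sinusoids, had been sorted from the non-parenchymal fraction of mice of both strains and of their CB6F1/J hybrid, and profiled by ChIP–seq, with 3 libraries per group. All of these libraries were labelled as control. CB6F1/J are the first-generation offspring of BALB/cJ females and C57BL/6J males, so the BALB/cJ allele was always the maternal one, and an effect of the parent of origin and an effect of the genome cannot be told apart. The labels carry no age, and they do not say which libraries share an animal, so p-values measure only the spread between these libraries, which may be technical in part.

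The unit was a window of 1000 bp around an ATAC–seq peak, counted in the libraries of the parental strains. F1 reads that matched 1 genome perfectly and spanned a variant were deposited per region of 200 bp, and the regions were summed into the parental window that held their midpoint, so an allele value covers a smaller stretch than a strain value. Of 96381 windows, 94171 lay on autosomes, and 4081 of these, nearest to 2232 genes, had a mean normalized count over 16 in both the parental and the F1 columns. A normalized count is a count scaled by the effective library size to the mean size of its set, so levels can be compared within the parental libraries or within the F1 alleles, but not between these sets. The strain difference is log2 of BALB/cJ over C57BL/6J in the parental libraries, the allele difference is the same ratio between F1 alleles, and the interaction is the first minus the second. A window was called when the adjusted p (edgeR quasi-likelihood, Benjamini–Hochberg over the 4081 windows) was under 0.05 and the absolute log2 value was over 1.

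H3K27ac marks active promoters and enhancers, and its level at an enhancer follows the transcription factors and coactivators bound there. In a hybrid, both alleles meet the same transcription factors, signals and cell state, whereas the parental strains also differ in everything that surrounds the DNA. In genetics, a strain difference that persists between alleles is therefore assigned to the linked sequence (cis), and one that is absent between alleles to diffusible or environmental differences (trans).

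The F1 regions that carried most variant-spanning reads are shown for windows of 2 kinds, since the report turns on this contrast. At 3, the strain difference and the interaction were called but not the allele difference (Cxcr4, Clec4f and H2-Aa). At 2, the strain and the allele difference were called in the same direction (Arid5b and Gcnt1). The letters are the mm10 reference, which is the C57BL/6J genome, plus strand, 5′ to 3′. Capitals mark matches on either strand to GAAANNGAA (IRF; Cxcr4 and Arid5b), TTGCNNAA (C/EBP; Clec4f) or the NF-kB consensus (Gcnt1); H2-Aa held no match to these or to TGANTCA (AP-1), GAGGAAGT (PU.1), TCACGTGA (MITF/TFE) and GTCAGCA (MAF).
Cxcr4 (chr1:128591104-128591304): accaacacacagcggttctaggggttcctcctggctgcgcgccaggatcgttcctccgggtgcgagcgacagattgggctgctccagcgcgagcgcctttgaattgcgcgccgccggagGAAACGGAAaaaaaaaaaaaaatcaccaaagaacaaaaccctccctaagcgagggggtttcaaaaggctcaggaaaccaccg
Clec4f (chr6:83660168-83660368): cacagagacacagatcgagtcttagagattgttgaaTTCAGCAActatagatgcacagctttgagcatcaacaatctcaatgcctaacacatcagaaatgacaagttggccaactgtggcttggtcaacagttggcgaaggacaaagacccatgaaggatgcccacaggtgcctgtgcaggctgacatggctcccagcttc
H2-Aa (chr17:34286877-34287077): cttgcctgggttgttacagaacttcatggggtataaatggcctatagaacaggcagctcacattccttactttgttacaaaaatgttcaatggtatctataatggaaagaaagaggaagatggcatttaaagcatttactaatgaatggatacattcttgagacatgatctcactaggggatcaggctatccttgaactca
Arid5b (chr10:68204271-68204471): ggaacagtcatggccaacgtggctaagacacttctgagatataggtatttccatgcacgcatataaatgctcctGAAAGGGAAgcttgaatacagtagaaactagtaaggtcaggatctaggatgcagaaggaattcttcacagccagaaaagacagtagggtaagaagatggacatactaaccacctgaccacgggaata
Gcnt1 (chr19:17276595-17276795): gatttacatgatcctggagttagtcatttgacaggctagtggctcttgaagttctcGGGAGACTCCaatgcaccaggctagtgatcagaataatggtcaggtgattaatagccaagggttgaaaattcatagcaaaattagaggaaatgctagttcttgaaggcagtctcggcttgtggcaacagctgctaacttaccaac
The regions of Cxcr4 (its only intron), H2-Aa (intron 1) and Arid5b (intron 3) are intronic in the RefSeq annotation of the files, and the other 2 are intergenic. Among the 4081 regions of this length, 1 per window tested, IRF letters were found in 7.62%, C/EBP in 8.38% and NF-kB in 3.75%. A match describes the letters only and is not a bound site, and the BALB/cJ bases at the variants were not used here.

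The tested windows held 308340 to 1556572 reads per parental library and 103666 to 246115 variant-spanning reads per allele and animal, with a median of 1022 parental and 188 F1 reads summed per window. Replicate 2 of each strain was the shallowest and carried counts in steps of 0.5. The windows nearest the start sites of 10 Kupffer cell markers, Clec4f, Timd4 and C1qa among them, summed to 1240–1360 normalized counts in BALB/cJ libraries and 1350–1960 in C57BL/6J libraries. Those of T and NK cell markers summed to 115–151 in BALB/cJ, against 61.8–70.3 in C57BL/6J (5 of 11 markers with a window, none at 0), so these sums did not overlap, and the part of such cells in the strain differences was not tested. In these bulk samples, fewer cells of a type and less acetylation per cell cannot be told apart.

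Between the parental strains, 454 of 4081 windows were called (11.1% of those tested), of which 184 favoured BALB/cJ (4.51%) and 270 favoured C57BL/6J (6.62%). Between the F1 alleles, 421 windows were called (10.3%), 184 with more reads of the BALB/cJ allele (4.51%) and 237 with more of the C57BL/6J allele (5.81%). Of the 454 strain-called windows, 215 (47.4%) were called between alleles in the same direction. This share was 53.8% of the windows higher in BALB/cJ (99 windows) and 43.0% of those higher in C57BL/6J (116 windows). No window was called in opposite directions by edgeR without a block, against 2 at an unadjusted p under 0.05, 3 by DESeq2 and 1 with the replicate number as a block. With that block, 478 windows were called between strains, 463 between alleles and 231 in both in the same direction.

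A missed allele call does not show that a difference was lost, so the interaction was tested directly. It was called at 77 windows (1.89%), 45 positive (1.1%) and 32 negative (0.784%), and 462 windows had an unadjusted p under 0.05. With the replicate number as a block (libraries with the same number deviated together), the interaction was called at 132 windows, 76 of them among the 77, and DESeq2 called 138. Without BALB/cJ replicate 3 it was called at 49. Of the strain-called windows, 38 (8.37%) had the interaction called without the block and 60 with it, and 23 without BALB/cJ replicate 3 or without C57BL/6J replicate 3. Of these 38, 8 were also among the 215, since their alleles were called in the same direction at another size. In 33 of the 38 the difference was smaller between alleles and in 5 it was larger, and at 13 it had the opposite sign. The remaining 209 strain-called windows (46.0%) had neither call, and in 171 of them (81.8%) the allele difference had the sign of the strain difference. Without C57BL/6J replicate 3, 112 windows had neither call. For 58 of the 454 windows (12.8%) the 95% interval of the allele difference lay within 1 log2 unit of 0, and for 33 windows with neither call it held both 0 and the strain difference.

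**Figure D1:**
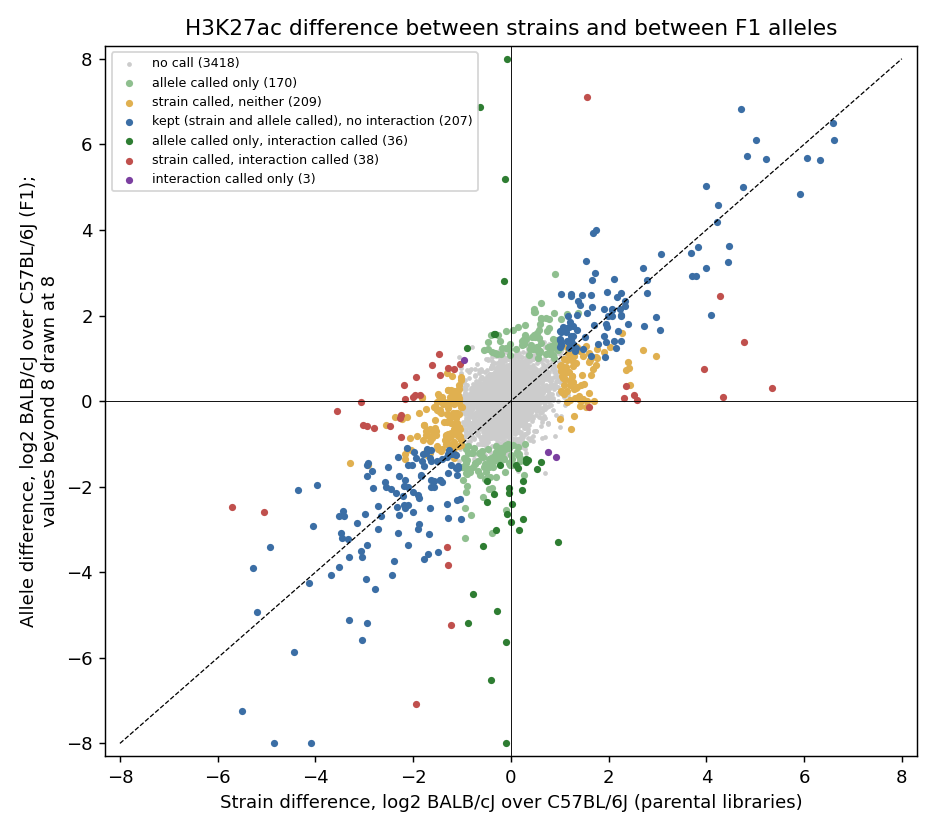
Strain difference (horizontal axis, log2 BALB/cJ over C57BL/6J in the parental libraries) against allele difference (vertical axis, the same ratio between F1 alleles) for the 4081 windows, coloured by call, with the dashed line at equality. Kept windows lie along the line, 33 of the 38 strain-called windows with the interaction called lie nearer to the horizontal axis than the line does, and the 36 allele-called windows with the interaction called run up and down near a strain difference of 0.

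Over the 454 strain-called windows the median ratio of the fitted allele to the fitted strain difference was 0.698. For the 3 animals taken singly it was 0.629, 0.705 and 0.692 (SD 0.0409, n = 3). There the allele difference was on the log2(normalized count + 1) scale and the strain difference was the fitted one. The strain and allele differences correlated across windows with a Pearson coefficient of 0.629 and a Spearman coefficient of 0.439 over 4081 windows, and with a Pearson coefficient of 0.819 over the 454 called ones. Windows share libraries and neighbouring windows share reads, so these coefficients are a description.

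Large strain differences were found between alleles more often than small ones. Of the 59 windows whose strains differed by over 3 log2 units, 86.4% were called between alleles in the same direction, all 59 had the same sign and the median ratio was 0.906. Of the 210 windows with a strain difference of 1 to 1.5, 27.6% were called, 81.4% had the same sign and the median ratio was 0.612. The interaction was called at 16.9% and 3.81% of these windows, and at 14.4% of the 90 windows with differences of 2 to 3. An allele call needed a difference over 1, and the median allele difference in the direction of the strains was 3.47 in the windows over 3 and 0.715 in those of 1 to 1.5, with median standard errors of 0.524 and 0.395.

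Windows chosen for a large strain difference carry favourable errors in the libraries that chose them, so the comparison was repeated with each replicate of both strains left out of the call. Without replicate 1, 255 windows were called, and their median difference in the called direction was 2.01 in the left-out pair of libraries and 1.53, 1.57 and 1.56 in the F1 animals. Without replicate 2, 349 windows had 1.67 in the left-out pair and 1.18, 1.30 and 1.16 in the animals, and without replicate 3, 214 windows had 2.43 and 1.71, 1.67 and 1.61. In each of these fits, the alleles differed by less than the strain libraries that had no part in the choice. These single-library differences are on the log2(normalized count + 1) scale, which understates differences of low counts and thus bears more on the F1, whose counts were lower. The reverse choice gave the reverse order. Windows called between alleles without 1 animal (412, 321 and 298 windows) differed by 1.58, 1.77 and 1.80 in the left-out animal, and by 1.05 to 1.31 in the pairs of parental libraries. The differences chosen in either set were thus smaller in the other set.

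**Figure D2:**
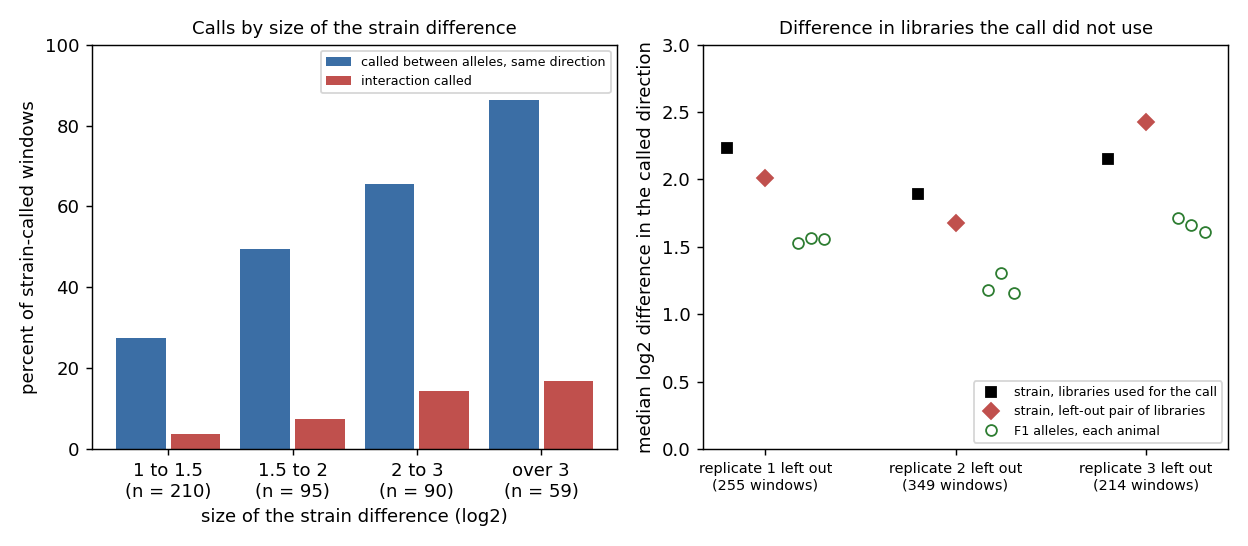
Left, the percentage of strain-called windows that were called between alleles in the same direction (blue) or had the interaction called (red), by size of the strain difference, with the number of windows. Right, the median log2 difference in the called direction with 1 replicate of both strains left out, for the libraries used (squares), the left-out pair (diamonds) and each F1 animal (circles); the circles at 1.16 to 1.71 lie under the diamonds at 1.67 to 2.43.

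Kept differences higher in BALB/cJ included an intron of Cacna1a, the pore-forming subunit of a neuronal calcium channel, 5.3 kb into the gene (chr8:84420206-84421206). It had 215, 228 and 213 normalized counts in BALB/cJ libraries and 2.56, 4.47 and 1.82 in C57BL/6J libraries. In the F1, the BALB/cJ allele had 50.2, 76.4 and 68 and the C57BL/6J allele 0, 0 and 3.87. Every BALB/cJ value was far above every C57BL/6J value in both settings. The strain difference was 6.33 ± 0.50 (log2 ± SE, n = 3 libraries per strain) and the allele difference 5.64 ± 0.57 (n = 3 animals), with an interaction of 0.69 (adjusted p = 0.86, edgeR).

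Arid5b, which encodes a DNA-binding protein, had its window 74.7 kb into the gene in intron 3, with 135, 127 and 127 counts in BALB/cJ libraries against 12.8, 2.23 and 4.84 in C57BL/6J libraries. The F1 alleles had 119, 60.8 and 79.2 (BALB/cJ) against 10.3, 5.14 and 0 (C57BL/6J). Strain and allele difference were 4.22 and 4.19. Windows near Ada, the adenosine deaminase gene (4.47 between strains and 3.62 between alleles), and in Cadm1, a cell adhesion gene (4.25 and 4.58), were of the same kind. The allele difference was the larger value, without an interaction call, near Irgm2, an interferon-induced GTPase gene (1.72 between strains, 2.99 between alleles, interaction adjusted p = 0.30), and near Tbc1d9, a member of the Rab GTPase-activating family (1.53 and 3.26, adjusted p = 0.11). Batf3, a transcription factor of dendritic cell development, was kept 20.7 kb downstream of its start site (1.01 and 1.63), with 266, 180.1 and 200.4 counts in BALB/cJ and 102, 78.2 and 135 in C57BL/6J libraries.

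Kept differences higher in C57BL/6J included a window 62.8 kb from the start of Gcnt1, which encodes a glycosyltransferase that branches O-glycans. It had 1.62, 6.59 and 10.5 counts in BALB/cJ libraries and 229, 189.9 and 341 in C57BL/6J libraries, and 18.2, 0.78 and 1.01 on the BALB/cJ allele against 85.4, 55.8 and 89.1 on the C57BL/6J allele. The BALB/cJ allele had more reads in the first animal than in the others, yet the alleles did not overlap. The differences were -5.28 ± 0.52 and -3.89 ± 0.56. An intron of Fcrl1, an Fc receptor-like gene, had 17.8, 13.2 and 22.4 in BALB/cJ against 169.9, 147 and 238 in C57BL/6J libraries and 9.12, 13.3 and 8.12 against 94.3, 143 and 149 between alleles (-3.31 and -3.63). Windows near Mir331 (-3.51 and -3.89), Fam43a (-3.04 and -3.64) and in Fam219a (-2.11 and -3.36) followed the same pattern. The promoter of Fblim1, a filamin-binding gene, was 1 of 22 promoters among the 215 kept windows (-2.39 and -3.75). Aoah, which encodes an enzyme that inactivates lipopolysaccharide, was kept in intron 1 at smaller size (-1.17 and -1.23, adjusted p = 0.019 and 0.042). Near Lgals3, the galectin-3 gene of macrophages, a kept window chosen after its values were seen had -1.28 and -1.15.

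Among the strain differences higher in BALB/cJ with the interaction called, that at Cxcr4 stood beside alleles of near-equal level. Cxcr4 is the receptor of the chemokine CXCL12, and the window lay in its only intron (chr1:128590515-128591515), 1.3 kb from the start site. BALB/cJ libraries had 133, 152 and 193 counts and C57BL/6J libraries 25.6, 31.3 and 24.2. The F1 had 24.3, 23.4 and 22.3 on the BALB/cJ allele and 20.6, 27.9 and 19.4 on the C57BL/6J allele. The strains did not overlap and the alleles did. The strain difference was 2.58 ± 0.34, the allele difference 0.02 ± 0.37 (95% interval -0.72 to 0.77) and the interaction 2.56 (adjusted p = 0.0014, edgeR). At 2 further Cxcr4 windows, 120.3 kb and 130.7 kb upstream and chosen after their values were seen, the calls differed. At the nearer the strains differed by 1.68 and the alleles by 0.74 (adjusted p = 0.25), and at the farther the alleles alone were called, in favour of C57BL/6J (0.29 between strains, -1.41 between alleles).

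A window 29 kb from the start of Ap1m1, which encodes a subunit of a clathrin adaptor, had 144, 171 and 142 counts in BALB/cJ libraries against 23, 35.8 and 23.6 in C57BL/6J libraries. Its alleles had 66.9, 59.2 and 69 (BALB/cJ) and 66.3, 53.6 and 57.1 (C57BL/6J). The differences were 2.51 ± 0.29 and 0.15 ± 0.27, with an interaction of 2.37 (adjusted p = 3.0e-04). Tspan13, a tetraspanin gene, differed between strains by 1.61 and between alleles by -0.15, but its interaction (1.76, adjusted p = 0.021) was not called without BALB/cJ replicate 3, C57BL/6J replicate 1, C57BL/6J replicate 2 or CB6F1/J replicate 1 (values of 1.46 to 1.78), or without replicate 2 of both strains (1.61). Colec12, a scavenger receptor gene, had 2.32 and 0.08, with an interaction of 2.24 that was not called without replicate 2 of both strains (2.01). The reads of its alleles differed by at most 2 in any animal.

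Lnx2, which encodes a ubiquitin ligase, showed a difference that was smaller between alleles but still called. Its intron had 327, 299 and 450.5 counts in BALB/cJ against 7.67, 13.4 and 27.9 in C57BL/6J libraries, and 73, 79.5 and 108 on the BALB/cJ allele against 17.7, 13.2 and 17.4 on the C57BL/6J allele. The strain difference was 4.29 ± 0.35 and the allele difference 2.46 ± 0.36. The interaction of 1.83 (adjusted p = 0.044) was lost when any 1 library other than BALB/cJ replicate 2 or C57BL/6J replicate 3 was left out, with values of 1.51 to 1.97.

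Higher in C57BL/6J, a window 15.1 kb from the start of Cldn14, a tight junction gene, had the lowest adjusted interaction p of the named strain-called windows. It had 40.5, 30.7 and 46.9 counts in BALB/cJ libraries and 327, 264 and 404 in C57BL/6J libraries. The BALB/cJ allele had 73, 108 and 88.3 and the C57BL/6J allele 118, 143 and 136. The libraries of the strains lay far apart, and the alleles lay close together without overlapping. The differences were -3.03 ± 0.27 and -0.55 ± 0.25, and the interaction was -2.48 (adjusted p = 2.9e-05).

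Tyrobp encodes DAP12, a signalling adaptor of myeloid receptors, and its window lay 20.6 kb upstream. Counts were 53.4, 52.7 and 32.9 in BALB/cJ libraries against 199, 228 and 236 in C57BL/6J libraries, and 53.2, 60.8 and 67 on the BALB/cJ allele against 73.7, 92.5 and 70.7 on the C57BL/6J allele (-2.28 ± 0.27 and -0.39 ± 0.27). The interaction was -1.89 (adjusted p = 0.0021). Adam17, the protease that releases TNF from the cell surface, had 3 windows of different behaviour. In intron 1, 4.9 kb from the start site, counts were 74.5, 92.2 and 68 in BALB/cJ against 354, 282 and 458 in C57BL/6J libraries, and 97.3, 122 and 112 against 181, 209.9 and 199 between alleles. The strain difference of -2.25 ± 0.25 compared with an allele difference of -0.83 ± 0.24 (interaction -1.42, adjusted p = 0.015), and this call was lost without BALB/cJ replicate 3 (-1.32), CB6F1/J replicate 2 (-1.36) or CB6F1/J replicate 3 (-1.39). At the promoter the values were -0.46 and -0.35, neither called, and a second window in intron 1 was called between alleles alone (-0.59 and -1.18, chosen after its values were seen).

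Ubxn2b, which encodes a cofactor of the p97 ATPase, kept a called allele difference of -2.60 beside a strain difference of -5.05. Its interaction (-2.46, adjusted p = 0.022) was not called without BALB/cJ replicate 3 (-1.91), C57BL/6J replicate 3 (-2.30), CB6F1/J replicate 2 (-2.21) or CB6F1/J replicate 3 (-2.34). At a window near Haus2, which encodes a subunit of the augmin complex of the spindle, the strains had 80.9, 57.1 and 55.3 (BALB/cJ) and 310.5, 201 and 360.2 (C57BL/6J) counts and differed by -2.17. Its alleles had 48, 70 and 57 reads of BALB/cJ against 48, 72.5 and 59 of C57BL/6J before normalization, and differed by 0.04. Such near-identical read numbers also stood at Gm20139, a predicted gene outside the naming rule and chosen after its values were seen (33.5, 24.5 and 7.5 against 34.5, 24.5 and 6.5 reads). Whether reads at such windows were assigned to both alleles was not tested. In all, 53 of the 4081 windows had alleles within 1 read of each other in every animal, 5 of them strain-called and 1 with the interaction called, and without these 53 windows the interaction was called at 76 windows. Haus2 and Colec12, whose alleles differed by up to 2.5 and 2 reads in an animal, lay outside this limit and stayed in. The removal thus does not measure how far such near-identical windows bear on the interaction calls.

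**Figure D3:**
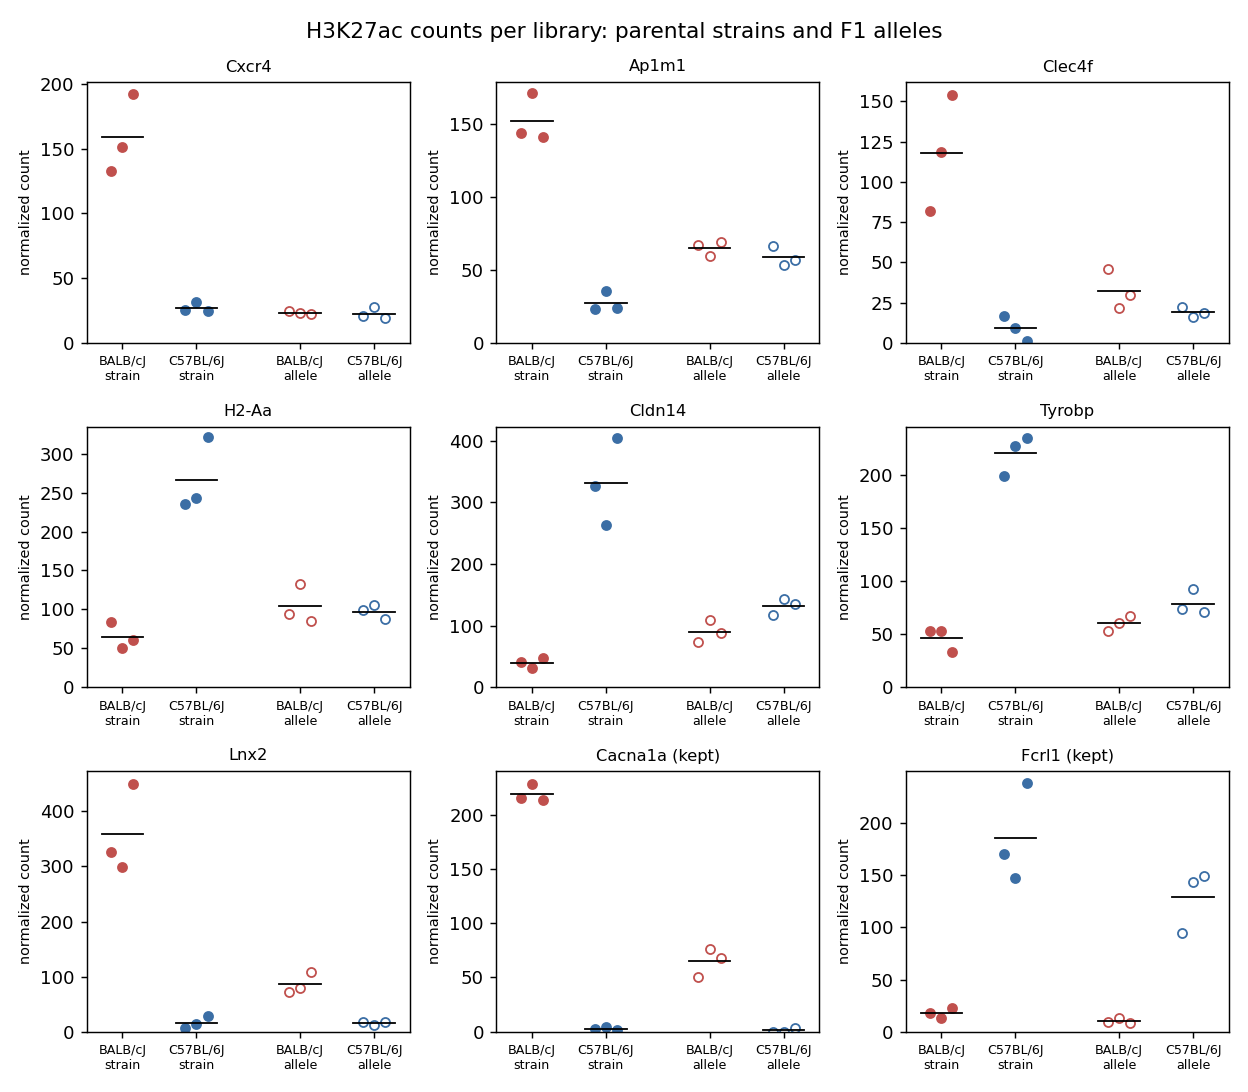
Normalized H3K27ac counts per library at 9 windows, with BALB/cJ in red and C57BL/6J in blue, filled points for the parental libraries, open points for the alleles of the 3 F1 animals and a line at each mean. At Cxcr4 the BALB/cJ libraries lie far above the C57BL/6J libraries and the alleles overlap, whereas at Cacna1a and Fcrl1 the alleles are separated as the strains are. Parental and F1 levels are on separate scales.

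The genes of antigen presentation by MHC class II, which displays peptides to helper T cells, had more interaction calls than any other list examined. The list was drawn up with earlier results of these data known. Of its 26 tested windows near 8 of 12 genes, 1 was higher in BALB/cJ and 13 in C57BL/6J between strains, 1 and 2 were called in these directions between alleles, and 5 had a negative interaction. These were 3.85%, 50.0%, 3.85%, 7.69% and 19.2% of the list, against 4.51%, 6.62%, 4.51%, 5.81% and 0.784% of all windows. The median strain difference was -1.13 and the median allele difference -0.02, against -0.08 and 0.05 over all 4081 windows. Over 189.8 kb of chromosome 17 from H2-DMa to H2-Eb1 (chr17:34123160-34312942), 22 of 23 windows had a strain difference below 0 and 12 of 23 an allele difference below 0. Chromosome 17 held 287 of the tested windows and 11 of the 38 strain-called windows with the interaction called. MHC class II is also made by B cells and dendritic cells, whose marker windows summed to 90.7–110 in BALB/cJ against 83.1–106 in C57BL/6J libraries (B cell, 5 of 8 markers with a window) and 566–584 against 520–581 (dendritic cell, 9 of 9), with no marker at 0. Within the dendritic cell sum, 4 windows had under 16 counts. Single markers went both ways, with means of 89.4 in BALB/cJ and 155 in C57BL/6J at Xcr1, and 54.0 and 20.9 at Itgae. The part of such cells was not tested. H2 genes form a polymorphic multigene family, so reads at these windows could be lost or shared between copies.

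H2-Aa, the alpha chain of I-A, had its changed window in intron 1 (chr17:34286485-34287485). BALB/cJ libraries had 83.4, 50.5 and 60.9 counts and C57BL/6J libraries 235, 244 and 321, while the BALB/cJ allele had 94.3, 133 and 85.3 and the C57BL/6J allele 98.7, 106 and 87.1. C57BL/6J was higher in every library, and the alleles overlapped. The differences were -2.01 ± 0.26 and 0.11 ± 0.26 (95% interval -0.42 to 0.63), and the interaction -2.12 (adjusted p = 4.0e-04). H2-Eb1, the beta chain of I-E, differed in sign between settings at a window 1.4 kb upstream, with 90.7, 46.1 and 32.2 counts in BALB/cJ against 209.6, 127 and 185 in C57BL/6J libraries and 51.7, 56.1 and 41.6 against 28, 39.6 and 14.5 between alleles (-1.62 and 0.84, interaction -2.46, adjusted p = 0.0039). The allele difference was not called there (adjusted p = 0.18), although its 3 animals did not overlap. Its intron 1 had -1.44 and 0.61.

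H2-DMb1, part of the DM complex that loads peptides, had 13, 22 and 28 counts at its promoter in BALB/cJ libraries against 120.1, 121 and 194 in C57BL/6J libraries, and 7.6, 32.7 and 10.1 against 28, 32.3 and 23.2 between alleles. The differences were -2.79 and -0.63, and the interaction -2.17 stood near the threshold (adjusted p = 0.047). A window 5.4 kb upstream of H2-Ab1, the beta chain of I-A, was called in the interaction alone (-0.96, 0.95 and -1.92, adjusted p = 0.043), and it lost that call when any 1 library other than C57BL/6J replicate 1 or CB6F1/J replicate 2 was left out (-1.47 to -2.09). Kept differences lay in the same stretch. In an intron of H2-Ob, a subunit of the DO modulator of peptide loading, the alleles differed as the strains did (-2.17 and -2.51), and so did the window 11.8 kb from its start, in favour of BALB/cJ (2.25 and 2.53), and intron 2 of H2-Eb1 (-2.11 and -2.01). Cd74, the invariant chain gene on chromosome 18, was strain-called at 2 windows with neither other call, for instance -1.37 between strains and -0.50 between alleles in its intron. H2-DMb1, the 2 intronic H2-Eb1 windows, H2-Ob and Cd74 fell outside the naming rule and were chosen from the list after their values were seen.

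**Figure D4:**
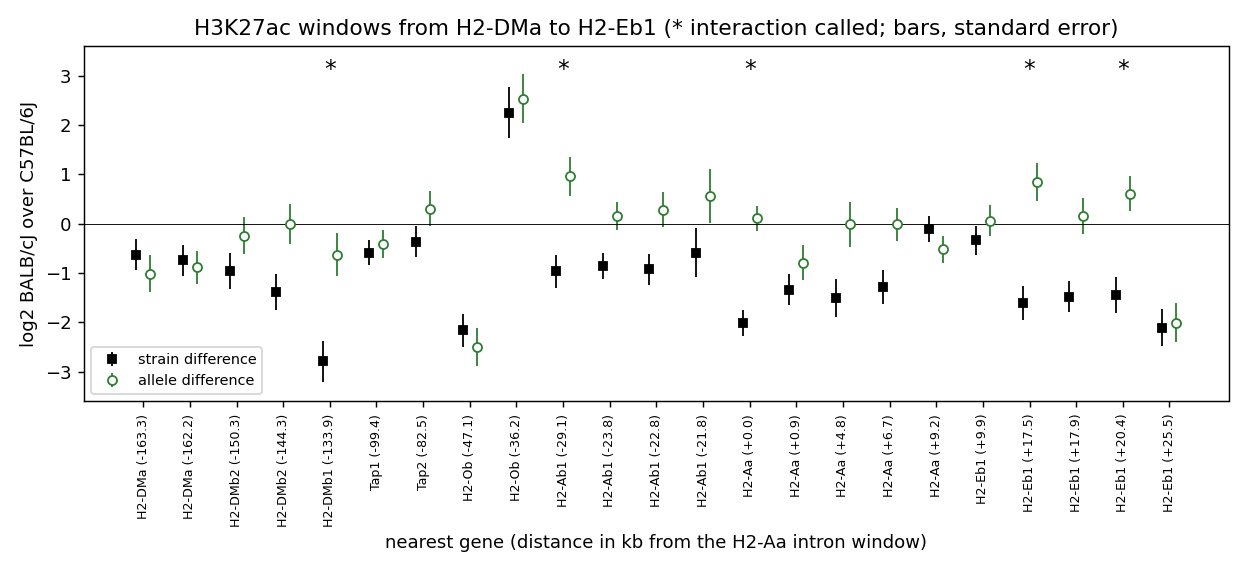
Strain difference (squares) and allele difference (circles) with standard errors at the 23 tested windows from H2-DMa to H2-Eb1, labelled by nearest gene and distance in kb from the H2-Aa intron window, with an asterisk where the interaction was called. Squares lie below 0 at 22 windows, whereas circles scatter around 0 with a median of -0.01. The 2 settings were both called and lie close together at H2-Ob and at the last H2-Eb1 window. Without a call, the allele difference was no smaller than the strain difference at the H2-DMa windows (-0.63 between strains and -1.01 between alleles, and -0.75 and -0.89).

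Of 69 tested windows near 21 of 48 listed Kupffer cell identity genes, between strains 2 favoured BALB/cJ and 4 favoured C57BL/6J, with 3 and 2 between alleles, and 4 had the interaction called, 2 in each direction. The shares called were 8.7% between strains, 7.25% between alleles and 5.8% in the interaction, against 11.1%, 10.3% and 1.89% of all windows. The median strain difference was -0.19 and the median allele difference 0.08. Clec4f, the C-type lectin by which Kupffer cells are recognized, had adjacent windows of both kinds. The window 4.4 kb upstream had 81.8, 119 and 154 counts in BALB/cJ libraries against 16.6, 8.94 and 1.21 in C57BL/6J libraries, and 45.6, 21.8 and 29.4 on the BALB/cJ allele against 22.1, 16.1 and 18.4 on the C57BL/6J allele (3.94 ± 0.51 and 0.76 ± 0.46, interaction 3.19, adjusted p = 0.0055). The BALB/cJ allele was the higher one in every animal there, though the allele difference was not called. The interaction call was lost without C57BL/6J replicate 3 (2.34) and without replicate 2 of both strains (3.23). The window 3.4 kb upstream, chosen after its values were seen, was kept (1.97 and 1.73), with 89.9, 79.1 and 116 against 38.3, 20.1 and 15.7 counts between BALB/cJ and C57BL/6J libraries.

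Cd5l, which encodes a secreted inhibitor of apoptosis made by tissue macrophages, had 5 windows with a call, and their patterns differed. In intron 1, 1.5 kb from the start site, counts were 231, 158 and 273 in BALB/cJ against 455, 246 and 533 in C57BL/6J libraries, whereas the BALB/cJ allele had 120.1, 118 and 114 against 41.2, 44 and 62 on the C57BL/6J allele. The strain with the lower mean thus carried the allele with more reads, and the libraries of the strains overlapped whereas the alleles did not. The strain difference of -0.89 ± 0.26 was under the size threshold, the allele difference of 1.25 ± 0.29 was called (adjusted p = 0.0025), and so was the interaction of -2.14 (adjusted p = 6.8e-04). Farther upstream, a window at 30.8 kb was kept (-2.91 and -1.46). A window at 27.9 kb had the interaction called (-2.94 and -0.59, adjusted p = 0.035), though not with the replicate block, and a window at 25.7 kb was called between alleles alone (0.56 and 1.19). These 3 and a window 1.1 kb upstream (-1.53 and -0.16, neither call) were chosen after their values were seen. The promoter of Cd38, an NAD-consuming ectoenzyme of activated macrophages, had 289.8, 246 and 283 counts in BALB/cJ and 325, 273 and 351 in C57BL/6J libraries, with 33.4, 60.0 and 50.7 against 134, 149.7 and 129.8 between alleles. Its allele difference of -1.49 ± 0.26 was called, but its interaction (1.28, adjusted p = 0.044) was lost when any 1 library other than C57BL/6J replicate 3 was left out (1.16 to 1.43).

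In the opposite case, alleles were called where strains were not. Of the 421 allele-called windows, 206 had no strain call, 85 with more of the BALB/cJ and 121 with more of the C57BL/6J allele, and 36 of these had the interaction called, against 59 with the replicate block, 71 by DESeq2 and 24 to 56 with 1 library left out (24 without CB6F1/J replicate 2 and 56 without CB6F1/J replicate 1). Of the 36, 29 had more reads of the C57BL/6J allele and 7 more of the BALB/cJ allele. A window on chromosome 17, named H2-L (an MHC class I gene) only as the nearest annotated gene, had 455, 289.9 and 385 counts in BALB/cJ libraries. C57BL/6J libraries had 411, 308 and 495. In the F1 it had no variant-spanning read of the BALB/cJ allele in any animal, against 88.4, 58.7 and 75.5 of the C57BL/6J allele. In variant-spanning reads, the BALB/cJ allele was at least 72.4-fold lower when set at the floor of 3 reads over the group. Perfectly matched F1 reads there, whether or not they spanned a variant, were 214 for BALB/cJ and 412 for C57BL/6J. H2-K1, a class I heavy chain gene, had 0, 2.34 and 0 counts of the BALB/cJ allele against 82.5, 102 and 94.9 of the C57BL/6J allele, beside 315, 198 and 269.7 and 331, 299 and 414 in the BALB/cJ and C57BL/6J strains. Its perfectly matched F1 reads were 6 for BALB/cJ and 299 for C57BL/6J.

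The same excess of C57BL/6J reads was found at Mir1963 (0, 1.56 and 1.01 of the BALB/cJ against 53, 53.6 and 45.5 of the C57BL/6J allele) and Mir5131 (0, 3.9 and 2.03 against 44.2, 41.1 and 74.6), both named here only as the nearest annotated gene. With the BALB/cJ allele higher, Adamtsl4 had 66.9, 103 and 63.9 against 2.95, 0 and 0, beside 249, 301 and 254 and 317, 322 and 590.3 in BALB/cJ and C57BL/6J libraries. Pxn, which encodes the focal adhesion protein paxillin, had an allele difference of 1.57 ± 0.35 and a strain difference of -0.32 ± 0.30. Its interaction (-1.89, adjusted p = 0.02) was lost without BALB/cJ replicate 1 (-1.82), BALB/cJ replicate 3 (-1.85), C57BL/6J replicate 2 (-1.78), CB6F1/J replicate 2 (-1.38) or CB6F1/J replicate 3 (-1.94), and without replicate 2 of both strains (-1.92). In 6 of the 36 windows 1 allele had at most 3 reads. Reads that matched a genome perfectly, whether or not they spanned a variant, had a median of 169.5 for BALB/cJ and 294.75 for C57BL/6J in the 36 windows, against 218.5 and 224 over all windows tested. The part of read assignment in this excess was not tested. At 5 of the 38 strain-called windows with the interaction called, the allele difference was the larger one. The promoter of Tbl3 had 104, 119 and 107 counts in BALB/cJ against 218, 197 and 346 in C57BL/6J libraries, and 3.04, 1.56 and 0 against 67.8, 32.3 and 59.1 between alleles (-1.23 and -5.23, interaction 4.01, adjusted p = 6.5e-04).

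Several genes of leptin signalling, costimulation and lipid handling were strain-called with neither an allele call nor an interaction call, so the data do not place them. Lepr, the leptin receptor, had 2 overlapping strain-called windows in intron 4. At the window 24.8 kb from the start site, counts were 142, 114 and 154 in BALB/cJ against 439.6, 255 and 525 in C57BL/6J libraries and 60.8, 65.5 and 68 against 69.2, 126 and 129.8 between alleles. The strains and the alleles both stood apart, by -1.57 ± 0.27 and -0.76 ± 0.28, but the allele difference had an adjusted p of 0.087 and the interaction one of 0.42. Cd40, the costimulatory receptor, had -1.76 and -1.21 (allele adjusted p = 0.076). Nearest to Il10, an anti-inflammatory cytokine gene, the signs were opposite (-1.21 and 0.59), with an interaction of -1.80 that was not called without the replicate block (adjusted p = 0.061) but was called with it (adjusted p = 0.039) and by DESeq2. Plin2, which coats lipid droplets, had 1.41 between strains, higher in BALB/cJ, and 0.05 between alleles (interaction 1.36, adjusted p = 0.12).

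Of the 32 interferon response windows, 1 was higher in BALB/cJ and 6 in C57BL/6J between strains, 4 and 2 between alleles, and 3 were kept. The shares were 21.9% between strains, 18.8% between alleles and 9.38% kept, against 11.1%, 10.3% and 5.27% of all windows. The interaction was called at none by edgeR, against 9 at an unadjusted p under 0.05, 3 by DESeq2 and 2 with the block. Ly6e, an interferon-induced surface protein, had windows of several kinds, such as a kept one at 26 kb upstream (-2.95 and -1.75, chosen after its values were seen) and one at 29 kb with values of -1.82 and 0.09 (interaction adjusted p = 0.061 without and 0.049 with the block). Oasl1 and Gbp3 were called between alleles alone (1.56 and 1.23), and with the block the interaction was called at Oasl1 (-2.03, adjusted p = 0.018). Toll-like receptor and NF-kB genes had no call in any of the 3 comparisons at 23 windows (edgeR; 0, 1 and 1 at an unadjusted p under 0.05 for strain, allele and interaction, and 0 by DESeq2). The same was found for LXR targets and sterol synthesis at 20 windows (2, 1 and 3 unadjusted, and 0 by DESeq2). AP-1 and ATF genes had 1 window of 29 called, in both settings. Tested windows lay near 13 of 39, 7 of 31 and 8 of 26 genes of these 3 lists in turn, so most of the listed genes were not tested.

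**Figure D5:**
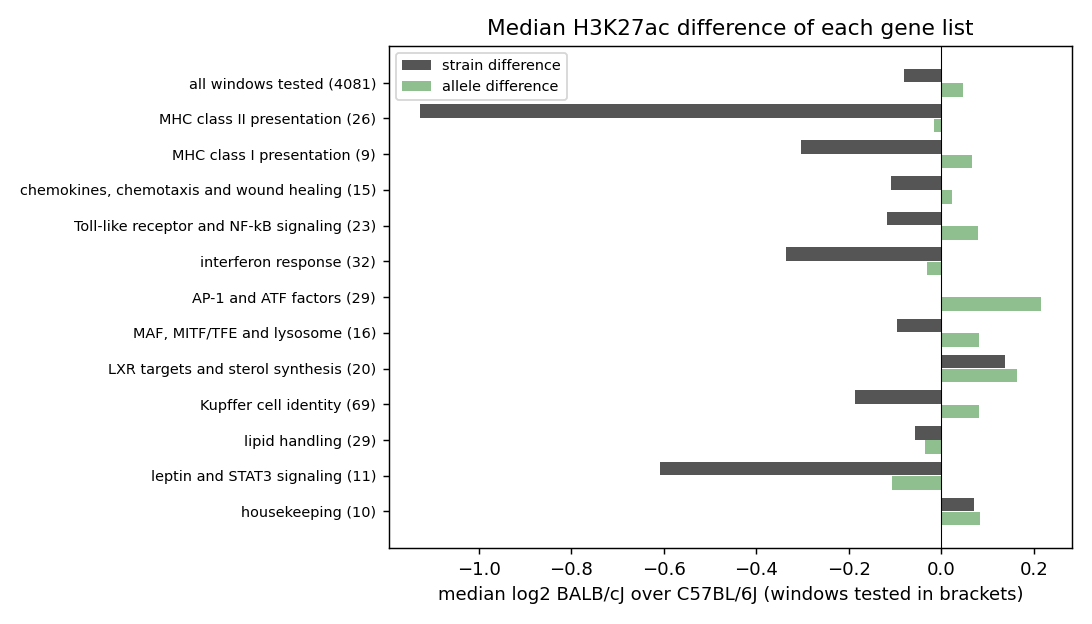
Median strain difference (dark) and median allele difference (green) of each gene list with at least 9 tested windows, as log2 BALB/cJ over C57BL/6J, with the number of windows in brackets. MHC class II genes have the longest dark bar, at -1.13, beside an allele median of -0.02, and all windows together stand at -0.08 and 0.05.

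By position, strain-called windows were seldom promoters, whether the difference was kept or changed. Promoters made up 10.2% of kept windows, 10.5% of strain-called windows with the interaction called and 27.6% of all windows tested, whereas they made up 33.3% of the allele-called windows without a strain call that had the interaction called. Intergenic windows were 38.6%, 42.1%, 25.3% and 13.9% of these groups. Variant-spanning F1 reads were also taken as a percentage of the perfectly matched counts of both genomes added together. Reads that matched both genomes count in each, so this understates the share of single reads. Its median was 75.4% in kept windows, 69.8% in strain-called windows with the interaction called and 49.6% over all. In the 1000-bp windows, C/EBP letters were found in 48.1% (13 of 27) of the strain-called windows with the interaction called that were higher in C57BL/6J, against 34.4% of all windows. AP-1 letters were in 45.5% (5 of 11) of those higher in BALB/cJ, against 28.4% of all, and IRF letters in 42.2% of the kept windows higher in C57BL/6J, against 32.2% of all. These shares were picked from all the motifs listed above. Among the 27 changed windows higher in C57BL/6J, IRF (29.6%) and NF-kB (11.1%) letters were rarer than over all (32.2% and 15.3%). So were AP-1 (25.9% against 28.4%) and PU.1 (7.41% against 13.6%). MITF/TFE (3.7% against 2.08%) and MAF (18.5% against 16.2%) were more frequent. In allele-only windows with the interaction called, NF-kB letters stood at 33.3%, and only C/EBP letters (33.3%) were rarer than over all. All these shares describe few windows and were not tested.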

How the data were processed

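H3K27ac ChIP–seq had been done on sorted Kupffer cells of the BALB/cJ and C57BL/6J strains and of CB6F1/J, with 3 libraries per group, which were grouped by their labels. Parental reads were aligned by the authors with Bowtie2 to the genome of each strain, shifted to mm10 with MMARGE and counted with HOMER in 1000-bp windows around merged ATAC–seq peaks. Versions are not given in the sources used here. The deposited values are counts (parental replicates 1 and 3) or expected counts in steps of 0.5 (parental replicate 2, the inputs and the F1 columns). In parental replicate 2, 38.838% (BALB/cJ) and 37.838% (C57BL/6J) of values were not whole, for which no source gives a reason, and all such values were rounded. F1 values deposited by the authors count perfectly aligned reads that span a variant in regions listed with 200 bp, whereas the study's methods name 1000 bp. They were 6.782% of the perfectly aligned counts of both genomes added together. A read without a variant can match both genomes and is then counted in each, so this is not a share of single reads. Of 932 pairs of neighbouring regions that started 300 to 400 bp apart and held over 50 reads together, 55.8% had 1 member with at most 2 reads, although regions counted over 1000 bp would share most of their length. Of the tested windows, 1135 held 2 or more regions, and with the nearest region alone 87 of 3448 windows had the interaction called.

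Of 217456 F1 regions, 107291 had their midpoint in a window and were summed into it. The 12 columns were fitted in 4 groups with edgeR 4.0.16 (limma 3.58.1, R 4.3.3) by the quasi-likelihood test, after TMM scaling within the parental and within the F1 columns. Windows with a mean normalized count over 16 in both sets were tested, and a window was called where the absolute log2 value exceeded 1 at an adjusted p below 0.05. Floors and intervals (95%) cover counting error or the spread between libraries, and reads without molecular identifiers are not independent molecules. Effective library sizes were 3083265 to 11378780 (parental) and 157799.8 to 326847.3 (F1), and the median standard error was 0.305 for strain and 0.365 for allele differences. Overlapping windows (27.94% overlap the window before) share reads.

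Replicate numbers were checked for pairing by the correlation of deviations from the group means. Same-numbered libraries gave 0.245, 0.397 and 0.313 in the parental and 0.184, 0.177 and 0.196 in the F1 columns, and other pairs -0.307 to 0.0556, so the numbers were taken to pair the libraries, and the blocked count is given beside the interaction. The main fit had no block. DESeq2 1.42.0, other scalings, count minimums, joins and left-out libraries were tried as alternatives.

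Named windows were, in each direction, those of largest interaction or allele difference per class among windows whose replicates did not overlap and that met count minimums (up to 6 strain-called windows with the interaction called, 6 kept and 4 allele-only windows, 1 per gene, without predicted genes), the 3 windows of lowest interaction p in each gene list, 1 per gene, and the tested windows of genes the study discusses. Exceptions are stated where they occur. The members and the lists were chosen with earlier results of these data known. Sequences come from the GRCm38.p6 (mm10) reference. Some items are not reported here. Other strains, other assays and chromosomes X and Y were not analysed here.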

Additional observations from a re-analysis of the deposited data

Results flagged for a closer look

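At the following windows the strain and the allele difference themselves differed in a test of the interaction (edgeR), and each value is the strain minus the allele log2 difference. The interaction was positive at Cxcr4 (2.56), Ap1m1 (2.37), Clec4f (3.19), Colec12 (2.24), Tspan13 (1.76), Lnx2 (1.83), Cd38 (1.28), Mir5131 (3.72) and Tbl3 (4.01). It was negative at Cldn14 (-2.48), Haus2 (-2.21), Tyrobp (-1.89), Ubxn2b (-2.46), Adam17 (-1.42), Pxn (-1.89) and both Cd5l windows (-2.35 and -2.14). In the MHC class II stretch it was negative at H2-Aa (-2.12), H2-Ab1 (-1.92), H2-DMb1 (-2.17) and the H2-Eb1 windows (-2.46 and -2.05).

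At 4 further windows named in this report with the interaction called, 1 allele had at most 3 reads over the 3 animals. The level of the other allele is therefore given in place of a fitted difference. Windows not named here also had so few reads of an allele. The mean normalized count was 74.2 for the C57BL/6J allele at H2-L, 93.1 for the C57BL/6J allele at H2-K1, 50.7 for the C57BL/6J allele at Mir1963 and 77.9 for the BALB/cJ allele at Adamtsl4.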

How the results depend on the processing

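With no minimum count, 2050 windows were called between strains, 1377 between alleles and 188 in the interaction, with 703 kept, 81 strain-called with the interaction, 1283 with neither and 674 between alleles alone. With a minimum of 32, these counts were 140, 172, 50, 71, 22, 51 and 101, and the median ratio was 0.648. The replicate block gave 132 interaction calls, 60 of them strain-called, and a block in the F1 alone gave 124 and 59. DESeq2 called the interaction at 138 windows. Among windows that do not overlap, 264 were called between alleles, 37 in the interaction, 20 strain-called with the interaction and 119 between alleles alone. Parental and F1 columns fitted apart gave 111 windows between alleles alone, and the interaction could not be computed from such fits. Without replicate 2 of both strains the ratio was 0.643. The cause of these shifts was not tested, except that count minimums and overlap change the number of windows tested.

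Leaving out 1 library gave 315 to 591 strain calls, 280 to 470 allele calls, 49 to 101 interaction calls, 145 to 251 kept windows, 23 to 41 strain-called windows with the interaction, 112 to 306 with neither, 135 to 219 between alleles alone and ratios of 0.624 to 0.764. The lowest interaction count was without BALB/cJ replicate 3 (49) and the highest without CB6F1/J replicate 1 (101). The fewest allele calls were without CB6F1/J replicate 2 (280), and the fewest strain calls without C57BL/6J replicate 3 (315). Of the alternatives computed for named windows, 1717 stayed on the same side of the threshold, 51 lost the call, 22 gained one and 0 reversed. Direction was checked only at windows called in the main fit, so windows without a call could neither lose one nor count as reversed. All the lost calls were interaction calls. Further choices were made after seeing the data. Without windows whose alleles lay within 1 read, 76 interaction calls were left, and without windows of at most 3 reads of an allele, 67.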

Other observations

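The counts of the remaining lists stand beside shares of 11.1% (strain) and 10.3% (allele) called over all windows. Leptin and STAT3 genes had 3 of 11 windows called between strains (27.3%), all higher in C57BL/6J, and 0 between alleles (edgeR; 2 at an unadjusted p under 0.05 and 1 by DESeq2), with medians of -0.61 and -0.11. Lipid handling genes had, of 29 windows, 1 strain call in favour of BALB/cJ, 3 in favour of C57BL/6J, and 1 called between alleles (13.8% and 3.45%). Chemokine, chemotaxis and wound healing genes had 2 of 15 windows higher in BALB/cJ between strains and 1 higher on the C57BL/6J allele (13.3% and 6.67%). MHC class I genes had no strain call at 9 windows (edgeR; 2 unadjusted and 0 by DESeq2) and 1 allele call. MAF, MITF/TFE and lysosome genes had no strain call at 16 windows (edgeR, with 3 unadjusted and 1 by DESeq2) and 1 allele call, at the promoter of the protease gene Ctsl. Tested windows lay near 6 of 17 listed MHC class I genes, 8 of 30 of this last list and 6 of 19 leptin and STAT3 genes.

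Of 10 housekeeping windows, near 9 of 26 listed genes, none was called between strains (edgeR, with 0 unadjusted and 0 by DESeq2). The 4 windows of 3 genes listed as imprinted and active from the maternal allele had no call in any comparison (edgeR, with 0 unadjusted and 0 by DESeq2). Their medians were 0.04 between strains and 0.18 between alleles. At the Gnas window, both alleles had identical read numbers in every animal. Whether the listed genes are imprinted in Kupffer cells was not tested, so the missing calls do not speak on the parent of origin. No window of the genes listed as imprinted and active from the paternal allele passed the count minimum.

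At 15 windows, those of Pim1 and Gnas among them, both alleles had identical read numbers in every animal.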
